A study of Mus musculus with 23 samples.

Results

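The microRNAs (miRNAs) of wild type hippocampus were compared with those of wild type cortex, directly and across all miRNAs counted. The comparison uses 6 of the 23 small RNA libraries of the study, hippocampus wild type replicates 1 to 3 and cortex wild type replicates 1 to 3, and they were chosen by their labelled region and genotype alone. All come from C57BL/6 mouse brain, with the region dissected and total RNA taken from the whole piece, so each library mixes neurons, glia, vessels and whatever adjoining tissue the dissection included. The study set these animals beside mice carrying a knockout of Cdr1as, a neuronal circular RNA that binds miR-7 and miR-671, in 4 brain regions. The 5 knockout libraries of the same regions, hippocampus replicates 2 and 3 and cortex replicates 1 to 3, are the same strain and serve here as further samples of the regional difference. Age and sex are not given in the labels, nor whether replicates came from separate animals. P-values of the main test therefore measure the spread between libraries of a group, estimated over all 23 libraries. That spread may in part be technical.

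A miRNA is cut from a hairpin precursor whose stem gives a 5p and a 3p arm. One arm usually enters an Argonaute protein and guides it to messenger RNAs, chiefly through the seed, the stretch of bases near its 5′ end, while the other arm is mostly degraded. Many miRNAs lie side by side in clusters that are transcribed together, or inside host genes. Hippocampus and cortex are both forebrain, built mainly of excitatory pyramidal neurons with inhibitory interneurons, and their abundant neuronal miRNAs are largely the same. The hippocampus lies along the lateral ventricle, which holds the choroid plexus, and the cortex runs forward toward the olfactory bulb.

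The sequences below are mature mouse miRNAs from RefSeq (assembly GRCm38.p6), written 5′ to 3′ in lower case with the seed, bases 2 to 8, in capitals. The first set shows both arms of miR-127, because the 3p arm gave the largest difference among abundant miRNAs and the 5p arm did not follow it. In the hairpin of the same gene, Mir127 on chromosome 12, the capitals mark the 3p arm in place of the seed.
miR-127-5p: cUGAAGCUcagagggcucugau
miR-127-3p: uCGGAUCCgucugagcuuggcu
Mir127: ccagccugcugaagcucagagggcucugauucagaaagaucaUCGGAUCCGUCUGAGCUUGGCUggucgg
The second set holds miRNAs that share a seed, and so are read as families further on. MiR-132-3p and miR-212-3p share one seed, miR-99a-3p and miR-99b-3p another, miR-204-5p and miR-211-5p a further one, and let-7b-5p and let-7c-5p that of the let-7 family.
miR-132-3p: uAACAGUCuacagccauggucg
miR-212-3p: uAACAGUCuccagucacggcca
miR-99a-3p: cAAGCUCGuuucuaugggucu
miR-99b-3p: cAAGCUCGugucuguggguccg
miR-204-5p: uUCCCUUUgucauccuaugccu
miR-211-5p: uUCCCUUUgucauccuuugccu
let-7b-5p: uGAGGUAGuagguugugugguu
let-7c-5p: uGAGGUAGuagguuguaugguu
The third set holds members of the miR-183 cluster and the miR-200 family, whose levels separate the olfactory bulb from the other regions. MiR-141-3p and miR-200a-3p have one seed, and miR-200b-3p, miR-200c-3p and miR-429-3p have another that differs from it at a single base.
miR-141-3p: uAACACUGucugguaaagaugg
miR-200a-3p: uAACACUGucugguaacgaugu
miR-200b-3p: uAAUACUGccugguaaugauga
miR-200c-3p: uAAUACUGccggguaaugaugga
miR-429-3p: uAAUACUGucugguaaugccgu
miR-182-5p: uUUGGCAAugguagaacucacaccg
miR-183-5p: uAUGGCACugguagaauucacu
miR-96-5p: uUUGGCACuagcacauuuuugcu
The last set shows further miRNAs that were higher in hippocampus (miR-935, miR-551b-3p, miR-218-5p and miR-125b-2-3p) or in cortex (the rest).
miR-935: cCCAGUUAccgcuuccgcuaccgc
miR-551b-3p: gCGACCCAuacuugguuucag
miR-218-5p: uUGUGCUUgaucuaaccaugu
miR-125b-2-3p: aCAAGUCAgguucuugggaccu
miR-193b-3p: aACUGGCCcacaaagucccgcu
miR-335-3p: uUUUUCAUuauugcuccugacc
miR-592-5p: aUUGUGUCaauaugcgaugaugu
miR-490-3p: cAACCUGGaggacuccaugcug
miR-369-5p: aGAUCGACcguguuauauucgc
miR-128-3p: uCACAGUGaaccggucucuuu

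The hippocampus libraries held 7217821, 9481613 and 8646107 miRNA reads and the cortex libraries 5238231, 6830695 and 4774415. Levels are given as CPM, the reads of a miRNA relative to the library size after TMM scaling. Differences are log2 values, hippocampus minus cortex, so that a positive value is higher in hippocampus. Of 669 miRNAs that passed the filter on low counts, 134 differed between the regions at an adjusted p under 0.05 (quasi-likelihood test of edgeR, Benjamini-Hochberg method), which is 20% of those tested. In hippocampus 56 miRNAs were higher (8.37%) and 78 were lower (11.7%). A 2-fold or larger difference was reached by 24 of the higher (3.59%) and 45 of the lower (6.73%). The split depends on the scaling: with upper quartile factors 131 were higher and 51 lower, and the median difference over all miRNAs moved from 0.03 to 0.27. Values of single miRNAs near 0 therefore have no sure direction, and families are described against that shift.

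The regions were close to each other as wholes. Pearson correlations of log2 CPM over the 669 miRNAs, given as a description, ran from 0.990 to 0.993 between libraries of a region and from 0.970 to 0.977 between the regions. The 10 most abundant miRNAs took 55.2% to 57.8% of CPM in each library. Of those 10, only miR-128-3p passed the test. In 119 miRNAs (17.8%) each hippocampus library lay above each cortex library, and in 122 (18.2%) each lay below.

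**Figure D1:**
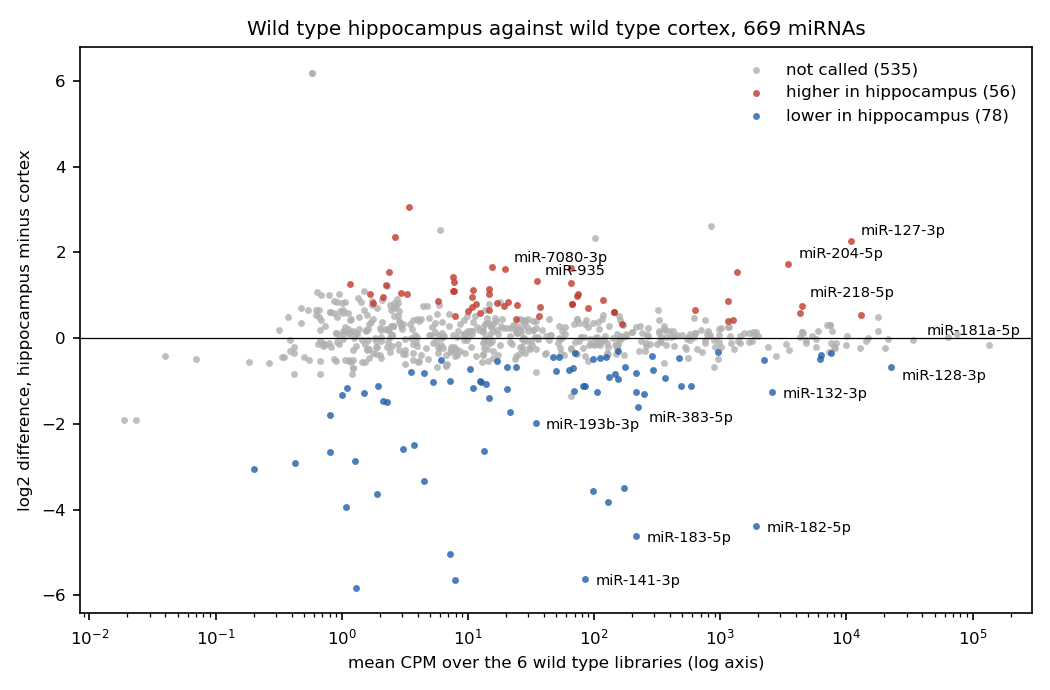
Difference between wild type hippocampus and wild type cortex (log2, vertical axis) against the mean level over the 6 libraries (CPM, log axis), 1 point per miRNA. The 56 miRNAs higher in hippocampus are red, the 78 lower are blue and the 535 not past the threshold grey. MiR-127-3p stands apart at the upper right, and miR-141-3p, miR-182-5p and miR-183-5p at the lower edge.

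Before single miRNAs are read, 2 sets of libraries need naming. The wild type cortex libraries carried miRNAs of the olfactory bulb. Summed over the miR-183 cluster and the miR-200 family, the level was 6824, 3689 and 4624 CPM in wild type cortex, against 201 to 329 CPM in wild type hippocampus and 143 to 446 CPM in knockout cortex. In wild type olfactory bulb the same sum was 272031 to 301648 CPM. Hippocampus wild type replicates 1 and 3 carried more of the miRNAs of choroid plexus and ciliated lining cells, with a summed level of 8606 and 10802 CPM against 2964 CPM in replicate 2. In wild type cortex that sum was 1929 to 2720 CPM, and in knockout hippocampus 3193 to 3498 CPM. Whether either set plays a part in other differences was not tested. Leaving both sets and the miRNAs of the Htr2c introns out of the table before fitting left 114 miRNAs past the threshold, 49 higher and 65 lower. No count without the olfactory bulb set alone was made. With replicate 2 as the lone hippocampus library, whose spread is then assumed to be that of the other groups, 65 passed, 26 higher and 39 lower.

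MiR-127-3p was the abundant miRNA with the largest difference. It comes from the strand opposite to the imprinted gene Rtl1 in the Dlk1-Dio3 region of chromosome 12, and its precursor is fully paired to the Rtl1 transcript. In hippocampus it was at 18176, 18666 and 16720 CPM and in cortex at 3272, 3600 and 4311 CPM. The groups lay far apart, 4.79-fold, a log2 difference of 2.26 (SE 0.14, quasi-likelihood adjusted p = 4.76e-10). The knockout libraries gave the same picture, with 16546 and 17174 CPM in hippocampus and 3235 to 4340 CPM in cortex. With wild type replicate 2 as the lone hippocampus library the difference was 2.33. The other arm of this hairpin, miR-127-5p, was at 522, 626 and 555 CPM in hippocampus and 602, 633 and 525 CPM in cortex, overlapping groups with a difference of -0.05 (SE 0.15, adjusted p = 0.866 by the same edgeR test).

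Few other miRNAs were strongly higher in hippocampus outside the choroid set. MiR-935 lies inside Cacng8, which encodes an auxiliary subunit of AMPA-type glutamate receptors, and was at 51.5, 52.4 and 46.2 CPM in hippocampus against 21.2, 19.9 and 18.8 CPM in cortex. Its difference was 1.33 (SE 0.15, edgeR adjusted p = 1.18e-06), with no overlap of the libraries. MiR-551b-3p was at 101, 106 and 91.0 CPM against 57.4, 45.7 and 42.5 CPM, a difference of 1.04 (SE 0.22, edgeR adjusted p = 0.00153). MiR-7080-3p, from a hairpin inside the copine gene Cpne7, was 3.07-fold higher, at 25.8 to 34.1 CPM against 8.62 to 11.7 CPM. MiR-3085-3p was 2.44-fold higher (91.5, 96.7 and 91.98 CPM against 42.8, 34.6 and 37.4 CPM), and miR-152-5p, from inside Copz2, was 2.22-fold higher at no more than 21.3 CPM. Each of these 5 kept its direction in the knockout libraries, with differences of 1.41, 1.18, 1.45, 0.98 and 0.65 in the order named, and each passed the test there as well. These 5, miR-127-3p and miR-204-5p were all that met every condition set for the largest higher miRNAs: a 2-fold difference, 20 CPM in the higher region and no overlap. Below that level, miR-7240-5p had a difference of 3.05 at 4.66 to 7.22 CPM in hippocampus, and miR-5129-3p, from inside the transcription factor gene Zeb2, one of 1.30 at 9.49 to 12.4 CPM. Both were picked after their values were seen.

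Among the miRNAs studied in dendrites and at synapses, 2 of 11 were higher and 1 was lower, with a median difference of -0.07, against 8.37% higher and 11.7% lower over all miRNAs. Both higher ones are arms of miR-218, which lies inside the axon guidance genes Slit2 and Slit3 and is known as a regulator of neuronal excitability. MiR-218-5p was at 5603, 5526 and 5525 CPM in hippocampus, nearly the same in all 3, and at 3405, 3392 and 3036 CPM in cortex. The difference was 0.76 (SE 0.13, edgeR adjusted p = 0.000122), and the rarer arm of the Slit3 copy, miR-218-2-3p, differed by 1.10 (SE 0.18, edgeR adjusted p = 0.000103). MiR-138-5p, which restrains dendritic spine growth, was at 24410, 20244 and 18320 CPM against 15732, 12120 and 16816 CPM. Its libraries did not overlap, but the difference of 0.50 (SE 0.25) did not pass the edgeR test (adjusted p = 0.192). The difference did pass in 3 of 17 alternative settings, upper quartile scaling (0.0316) among them. MiR-485-5p was the lower member at -0.47, with an adjusted p of 0.0761 without hippocampus replicate 3 and 0.253 with upper quartile scaling. MiR-125b-5p was at 6743 to 7639 CPM in hippocampus and 7295 to 8234 CPM in cortex, with overlap.

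The let-7 family is known for holding cells in a differentiated state. Of its 9 guide arms let-7b-5p and let-7c-5p were higher, against 8.37% over all miRNAs, the other 7 did not pass, and the median difference was -0.02. The family had no common direction: 3 guides lay above 0 and 6 below. Without overlap of the libraries 2 were higher and 2 lower (let-7e-5p and let-7f-5p), against 17.8% and 18.2% of all miRNAs. Upper quartile factors gave 3 called, all higher, and a median of 0.23. Let-7b-5p was at 1619, 1594 and 1233 CPM in hippocampus and 819, 874 and 739 CPM in cortex, 1.83-fold apart with an edgeR adjusted p of 5.48e-05. Let-7c-5p was at 16422, 16857 and 12783 CPM against 11919, 9588 and 10212 CPM, a difference of 0.54 (SE 0.13, edgeR adjusted p = 0.00587). The 9 guides summed over their shared seed did not pass the test, at 46706 to 60281 CPM in hippocampus and 51004 to 57594 CPM in cortex, with a difference of 0.05 (SE 0.13, edgeR adjusted p = 0.821). These sequences differ at single bases and can exchange reads, which limits their separate values.

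The same loci gave higher rare arms. Mirlet7b and Mirlet7c-2 lie together on chromosome 15 in the noncoding gene Lncppara, and all 4 of their tested arms were higher, against 8.37% of all miRNAs. Let-7c-5p has the same sequence from Mirlet7c-2 and from Mirlet7c-1 on chromosome 16, so its reads cannot be given to either locus and it counts at both. Let-7b-3p was at 179, 135 and 142 CPM in hippocampus and 60.1, 96.5 and 89.5 CPM in cortex. Let-7c-2-3p has a count equal to that of let-7a-1-3p in 23 of 23 libraries, so those reads could come from either locus. Its difference of 0.61 (adjusted p = 0.0228) lost the call without hippocampus replicate 2 or 3 or cortex replicate 1 or 3 (0.0548 to 0.130). Mirlet7a-1, Mirlet7d and Mirlet7f-1 lie together on chromosome 13, and 2 of their 6 tested arms were higher, let-7a-1-3p and let-7f-1-3p. The call of let-7f-1-3p was lost without hippocampus replicate 1 or cortex replicate 3 (edgeR adjusted p of 0.0553 and 0.0817). Mir99a and Mirlet7c-1 lie together on chromosome 16 in Mir99ahg, and 3 of their 4 tested arms were higher. There miR-99a-3p was at 100, 95.9 and 97.2 CPM against 55.7, 51.3 and 41.6 CPM, a difference of 0.98 (SE 0.14, edgeR adjusted p = 2.57e-05). Its more abundant partner miR-99a-5p, at 571 to 708 CPM against 543 to 662 CPM, did not pass the test (0.13, SE 0.16). Let-7c-1-3p, at under 5 CPM, was higher by 1.03 but lost the call without hippocampus replicate 3, cortex replicate 2 or cortex replicate 3 (adjusted p of 0.0502, 0.103 and 0.0693).

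The rare arms of the miR-125b copies went opposite ways. MiR-125b-2-3p was at 806, 790 and 732 CPM in hippocampus and 508, 491 and 479 CPM in cortex, a difference of 0.66 (SE 0.12, edgeR adjusted p = 0.000468). MiR-125b-1-3p, from a copy on chromosome 9, was at 112, 98.8 and 103 CPM against 146, 136 and 144 CPM, a difference of -0.44 (SE 0.15, edgeR adjusted p = 0.0398). That second call was lost when any 1 of the 6 libraries was left out (adjusted p of 0.0562 to 0.130) and with upper quartile scaling. The pair was noticed after the values were seen, and in the knockout libraries the differences were 0.57 and -0.07.

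Against 11.7% lower over all miRNAs, all 4 arms of miR-132 and miR-212 were lower in hippocampus, and so higher in cortex. These miRNAs are transcribed together on chromosome 11 and are induced by neuronal activity through the transcription factor CREB. MiR-132-3p was at 1753, 1491 and 1320 CPM in hippocampus and 3310, 3978 and 3630 CPM in cortex, a difference of -1.26 (SE 0.18, edgeR adjusted p = 1.66e-05). The cortex libraries held 2.39-fold more, with a wide gap between the groups. MiR-132-5p differed by the same -1.26 (SE 0.11), at 111 to 146 CPM against 286 to 317 CPM. MiR-212-3p was at 285, 249 and 226 CPM against 465, 470 and 504 CPM (-0.92, SE 0.18), and miR-212-5p differed by -0.84 (SE 0.14). In the knockout libraries the 4 differences were -1.25, -1.28, -0.87 and -0.88, in the order named here. In wild type olfactory bulb miR-132-3p averaged 3871 CPM, close to its level in cortex. Summed over the seed that miR-132-3p and miR-212-3p share, cortex had 3814 to 4355 CPM and hippocampus 1535 to 2085 CPM (-1.19, SE 0.18, edgeR adjusted p = 5.24e-05).

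**Figure D2:**
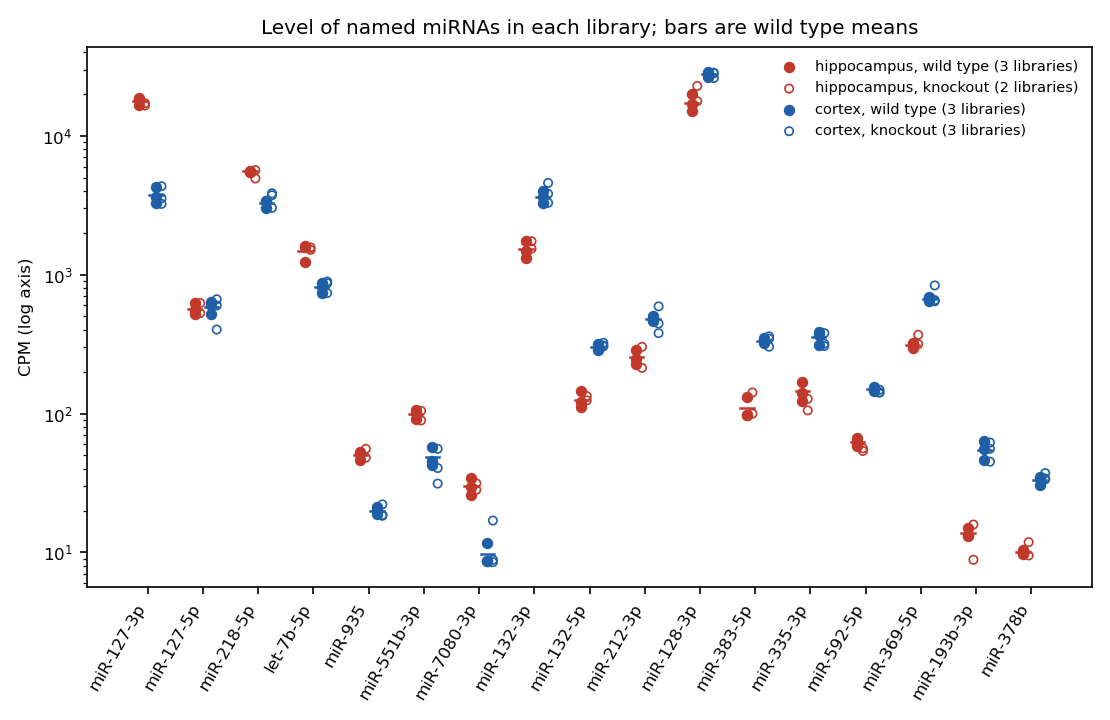
Level of 17 named miRNAs in each library (CPM, log axis): filled points are wild type, open points knockout, red hippocampus, blue cortex, and bars the wild type means. MiR-127-3p, miR-218-5p, let-7b-5p, miR-935, miR-551b-3p and miR-7080-3p are higher in hippocampus, miR-127-5p overlaps, and the miRNAs from miR-132-3p rightward are higher in cortex in both genotypes.

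Outside the olfactory bulb set, the largest falls from cortex to hippocampus at 20 CPM or more were in miR-3547-3p, miR-193b-3p, miR-378b, miR-383-5p, miR-6540-5p and miR-335-3p. MiR-193b-3p was at 13.2, 13.3 and 15.1 CPM in hippocampus and 45.9, 55.1 and 63.6 CPM in cortex, 3.96-fold apart (-1.99, SE 0.22, edgeR adjusted p = 9.23e-07). MiR-378b was at 9.87, 9.76 and 10.5 CPM against 35.1, 33.7 and 30.7 CPM (-1.72, SE 0.15). MiR-383-5p was at 97.1, 98.1 and 132 CPM against 336, 348 and 320 CPM (-1.62, SE 0.25, edgeR adjusted p = 4.71e-05). In these 3 no library overlapped, and the knockout differences of -2.13, -1.71 and -1.48 were of like size. MiR-335-3p, from the imprinted gene Mest, was at 123, 142 and 170 CPM against 370, 310 and 388 CPM (-1.30, SE 0.15), and its other arm miR-335-5p differed by -0.82 (SE 0.21). MiR-6540-5p fell to 7.20 to 8.67 CPM from 20.2 to 23.4 CPM. MiR-3547-3p, inside Baiap3, was at 2.97, 4.16 and 3.93 CPM against 31.0, 14.4 and 24.8 CPM, but its adjusted p of 0.0129 became 0.0526 without hippocampus replicate 1 and 0.0507 without cortex replicate 1.

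Several more were picked after their values were seen, because they lie inside receptor genes or share a seed. MiR-592-5p, inside the metabotropic glutamate receptor gene Grm8, had close replicates, at 58.4, 62.1 and 66.9 CPM in hippocampus and 150, 145 and 154 CPM in cortex (-1.26, SE 0.09, edgeR adjusted p = 4.35e-09). MiR-490-3p, inside the muscarinic receptor gene Chrm2, was at 42.5, 38.6 and 44.1 CPM against 90.0, 93.5 and 109 CPM (-1.22, SE 0.19). MiR-653-5p, inside the calcitonin receptor gene Calcr, was at 1.06, 1.52 and 0.737 CPM against 7.49, 4.72 and 6.98 CPM (-2.50, SE 0.35). All of them also passed the test in the knockout libraries, at -1.39, -1.14 and -1.35. MiR-130b-3p (-1.18) and miR-301b-3p (-1.01), members of one family, both fell, as did miR-31-5p (-0.91), miR-135b-5p (-1.08) and the p53 target miR-34a-5p (-0.78). MiR-592-5p and miR-490-3p averaged 414 and 431 CPM in wild type olfactory bulb, above their level in cortex. Their differences between hippocampus and cortex were of like size in the knockout libraries. Whether olfactory bulb tissue plays a part in these differences was not tested.

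Some rare miRNAs, also picked after their values were seen, were higher in cortex by larger factors. MiR-217-5p was at 0.743, 0.800 and 0.982 CPM in hippocampus and 5.80, 3.14 and 6.82 CPM in cortex (-2.59, SE 0.38, edgeR adjusted p = 2.77e-05), and its neighbour miR-216a-5p differed by -2.66. MiR-802-5p differed by -2.86 (SE 0.41). MiR-216b-5p had 1 read over the 3 hippocampus libraries and 8 over the 3 cortex libraries, a cortex to hippocampus ratio of 12.2 at equal depth with an exact 95% interval of 1.63 to 540. MiR-802-3p had 3 against 17 reads, a ratio of 8.62 (2.49 to 45.9). The intervals cover counting error only, and reads copied by PCR are not independent molecules.

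Of 12 miRNAs enriched in neurons at large, 5 were lower in hippocampus and none was higher, with a median difference of -0.27, or -0.03 with upper quartile scaling, when 3 were lower and 1 was higher. Over all 669 the median was 0.03, with 8.37% higher and 11.7% lower. MiR-128-3p, which dampens neuronal excitability and comes from copies inside R3hdm1 and Arpp21, was at 20090, 16885 and 15030 CPM in hippocampus and 26613, 29077 and 27522 CPM in cortex. The groups did not overlap, and the difference was -0.68 (SE 0.11, edgeR adjusted p = 8.88e-05). The rare arm of the R3hdm1 copy, miR-128-1-5p, differed by -0.68 as well (SE 0.15). MiR-129-2-3p was at 242, 442 and 428 CPM against 804, 817 and 789 CPM (-1.12, SE 0.26), miR-129-1-3p differed by -1.13 (SE 0.27), and their common partner arm miR-129-5p only by -0.32. That last call was lost without hippocampus replicate 1 or 3 or cortex replicate 2 or 3 (adjusted p of 0.0615 to 0.173). With upper quartile scaling neither miR-129-5p (0.730) nor miR-128-1-5p (0.0571) passed. MiR-124-3p was at 11954, 11651 and 11967 CPM against 13589, 13291 and 14602 CPM, without overlap, but its difference of -0.22 did not pass the edgeR test (adjusted p = 0.197), and miR-9-5p (0.10) and miR-137-3p (0.17) overlapped.

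MiR-181a-5p was the most abundant miRNA of all 6 libraries, at 123104 to 132754 CPM in hippocampus and 131536 to 154953 CPM in cortex, with overlap. The next were miR-9-5p at 65941 to 86686 CPM over the 6 libraries, miR-26a-5p at 58656 to 70982 CPM and miR-22-3p at 31365 to 37114 CPM. Apart from miR-128-3p and miR-138-5p, the 10 most abundant differed by -0.22 to 0.18. In the lists of broad families, 1 of 25 members of the miR-29, miR-30 and miR-181 families fell, against 11.7% lower over all miRNAs. That was miR-30d-5p (-0.49, edgeR adjusted p = 0.217 with upper quartile scaling). With that scaling 4 of the 25 were higher and none was lower. The miR-15/16 family, known for restraining the cell cycle, had 14 members. Of them 2 were higher, against 8.37% of all miRNAs (both arms of miR-195a, 0.33 and 0.66). Another 2 were lower, against 11.7% of all miRNAs (miR-16-5p at -0.34 and miR-322-5p at -0.36). All 4 of these were lost when some single library was left out. Without cortex replicate 3 the adjusted p was 0.137 for miR-195a-5p, 0.266 for miR-16-5p and 0.251 for miR-322-5p, and without hippocampus replicate 1 it was 0.0657 for miR-195a-3p. Under the upper quartile factors 3 of the 14 were higher and none was lower. Of 7 tested members of the rodent miR-344 family, miR-344-3p fell (-0.42, adjusted p of 0.0615 without hippocampus replicate 1 and 0.359 with upper quartile scaling). MiR-344d-3p was at 920, 923 and 750 CPM against 586, 685 and 650 CPM and did not pass (edgeR adjusted p = 0.126). It did pass in 2 of 17 alternative settings, upper quartile scaling among them (0.68, adjusted p = 0.0107). Upper quartile scaling thus turned the family's count from 1 lower to 1 higher. In the 6 libraries only, the family's count was 1 higher and 1 lower.

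The imprinted Dlk1-Dio3 region of chromosome 12 holds the largest mammalian miRNA clusters, expressed from the maternal chromosome. Of 63 tested members of its miR-379/410 cluster, 7 were lower in hippocampus and none was higher, 24 lay above 0 and 39 below, and the median was -0.12. The share lower is near the 11.7% of all miRNAs. Leaving out 1 library gave 4 to 8 lower, with 4 without cortex replicate 3. With upper quartile scaling 3 were higher and 3 lower and the median was 0.12, so the cluster as a whole has no sure direction. MiR-369-5p stood out within it, at 308, 325 and 296 CPM in hippocampus and 647, 685 and 687 CPM in cortex (-1.12, SE 0.12, edgeR adjusted p = 3.41e-07). Its partner arm miR-369-3p differed by -0.17 (SE 0.14) and did not pass. MiR-543-3p (-0.69), miR-154-5p (-0.50) and miR-410-3p (-0.40) were further members that fell. The call of miR-410-3p was lost without hippocampus replicate 1 (adjusted p = 0.0914), hippocampus replicate 3 (0.0900) or cortex replicate 3 (0.212). With upper quartile scaling miR-410-3p (adjusted p = 0.446) and miR-154-5p (0.210) did not pass.

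The 23 tested members from the strand opposite Rtl1 and its surroundings included 1 higher, miR-127-3p, and 1 lower, miR-431-5p. Over all miRNAs 8.37% were higher and 11.7% lower. MiR-431-5p was at 119, 103 and 94.8 CPM in hippocampus and 178, 188 and 252 CPM in cortex (-0.96, SE 0.20, edgeR adjusted p = 0.00125), while miR-431-3p, at 114 to 130 CPM over the 6 libraries, overlapped. MiR-434-3p, at 19517 to 22184 CPM over the 6 libraries, differed by -0.02. Among 11 hairpins that follow each other here within 10 kb steps, with 21 tested arms, the median difference was -0.11. The 2 changed arms thus lie among neighbours that did not pass the test.

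The balance of the 2 arms of a hairpin was compared within libraries, where no scaling enters. For 114 hairpins with both arms at a mean of 10 CPM or more, the log2 of the 5p over the 3p count differed between the regions by a median of 0.21 in size. It differed by 1 or more in 3 hairpins (2.63%): miR-127, miR-409 and miR-1298. For miR-127 the ratio was -5.12, -4.90 and -4.91 in hippocampus and -2.44, -2.51 and -3.04 in cortex, a difference of -2.32. For miR-409 it was -4.01, -4.17 and -5.99 against -2.69, -3.28 and -3.05. The rarer arm miR-409-5p was at 54.4, 45.7 and 11.2 CPM against 108, 81.2 and 94.6 CPM, and its own test did not pass (edgeR adjusted p = 0.101).

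Smaller shifts of the same kind were seen elsewhere. The ratio of miR-431 was lower in hippocampus, a difference of -0.999 (0.02, -0.34 and -0.37 against 0.61, 0.72 and 0.98), and that of miR-99b, a difference of -0.99. It was higher in hippocampus by 0.98 for miR-152, by 0.88 for miR-674 and by 0.87 for miR-671. In these 7 hairpins the libraries did not overlap, and the exact permutation test, on both sides, gave p = 0.1, the smallest possible with 3 libraries against 3. For miR-1298 the ratio was 3.22, -0.03 and 3.30 in hippocampus and 0.16 to 1.14 in cortex (exact p = 0.4), so it parted the hippocampus libraries from each other. The knockout libraries had a difference of -2.11 for miR-127, -1.27 for miR-409, -0.82 for miR-431, -0.89 for miR-99b and 0.71 for miR-674, but only 0.22 for miR-671 and 0.41 for miR-152.

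**Figure D3:**
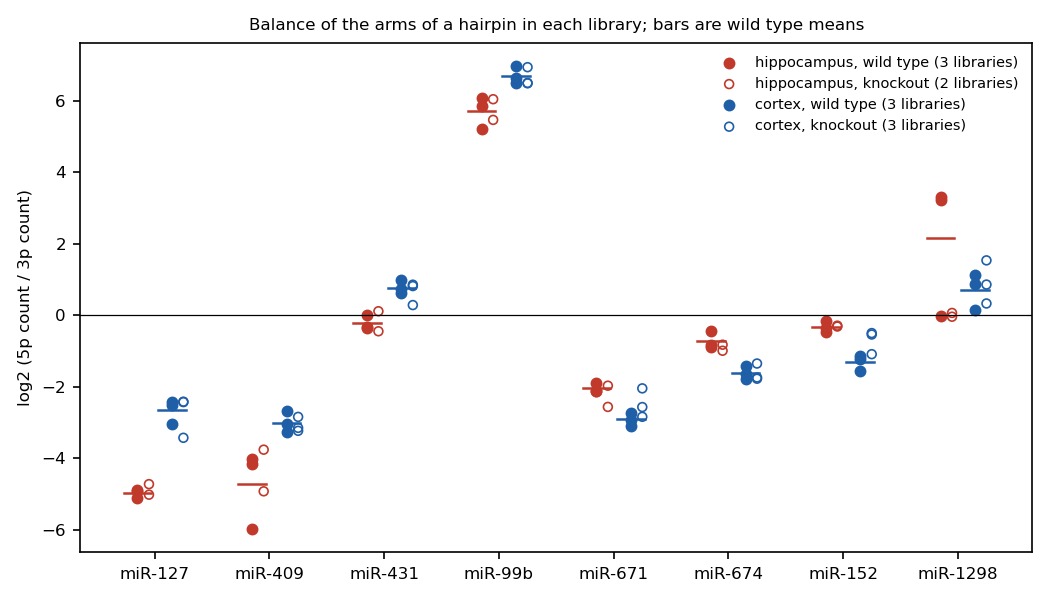
Balance of the arms of 8 hairpins in each library, as log2 of the 5p count over the 3p count (vertical axis). Filled points are wild type, open points knockout, red hippocampus, blue cortex, and bars the wild type means. MiR-127 lies near -5 in hippocampus in both genotypes and above it in cortex, and for miR-1298 hippocampus wild type replicate 2 lies with the knockout hippocampus libraries near 0.

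Summing reads over miRNAs with the same seed gave 584 families, of which 112 differed (19.2%), 48 higher (8.22%) and 64 lower (11%). Beside the miR-200 families, the families of 2 or more members with the largest differences were few. The pair of miR-204-5p and miR-211-5p was higher (1.75), as was the pair of miR-34b-3p and miR-34c-3p (1.60). The pair of miR-132-3p and miR-212-3p was lower (-1.19), as was that of miR-193a-3p and miR-193b-3p (-0.99). The pair of miR-99a-3p and miR-99b-3p was higher, at 150, 138 and 137 CPM against 82.8, 80.5 and 73.2 CPM, a difference of 0.85 (SE 0.10, edgeR adjusted p = 2.3e-06). MiR-99b-3p alone had a difference of 0.53 and an adjusted p of 0.0514 without cortex replicate 1.

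The miRNAs of the miR-17/92 cluster and its copies, which are known from proliferating progenitors, gave no call for a single member. None of 16 passed edgeR's test, 6 had an unadjusted p under 0.05, all 6 of them higher, and DESeq2 and limma-voom each called 1. Their median difference was 0.35, above the 0.03 of all miRNAs, and 15 of 16 lay above 0. With upper quartile scaling 8 passed, all higher. As sums over a seed, miR-17-5p, miR-20a-5p, miR-93-5p and miR-106b-5p were higher by 0.30 (SE 0.10, edgeR adjusted p = 0.0329). The seed sum that holds miR-92a-3p was higher by 0.46 (SE 0.16, edgeR adjusted p = 0.0423). That sum also holds miR-92b-3p, which is not in this list and makes up most of it. MiR-92b-3p was at 6494, 4804 and 4254 CPM against 3027, 3921 and 3388 CPM. The whole list summed to 2403 to 3022 CPM in hippocampus and 2101 to 2578 CPM in cortex. MiR-92a-3p itself did not pass. MiR-92b-3p passed with 0.59 (adjusted p = 0.0219) and lost the call without hippocampus replicate 1 (0.160), cortex replicate 1 (0.0995) or cortex replicate 3 (0.0753).

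The miRNAs tied to Cdr1as were compared because the study turns on that circular RNA. Their levels were at most 167 CPM in these 6 libraries. MiR-7a-5p, the guide arm, was at 130, 167 and 121 CPM in hippocampus and 105, 110 and 72.9 CPM in cortex. The groups did not overlap, but the difference of 0.53 (SE 0.24) did not pass the edgeR test (adjusted p = 0.133, and 0.0245 with upper quartile scaling), and its near copy miR-7b-5p, at 25.6 to 37.6 CPM against 15.97 to 26.7 CPM, overlapped (0.44, SE 0.23, adjusted p = 0.229). The sum of both guides over their shared seed differed by 0.54 (SE 0.23, edgeR adjusted p = 0.126). In all, 3 of the 7 members were higher and none was lower, against 8.37% higher and 11.7% lower over all miRNAs. The count was 5 with upper quartile scaling and 1 without hippocampus replicate 2 or without cortex replicate 3.

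Those 3 were the rarer arms of their hairpins. MiR-671-5p had 28.2, 23.8 and 20.3 CPM in hippocampus against 12.7, 14.8 and 15.5 CPM in cortex (0.75, SE 0.15, edgeR adjusted p = 0.000925), while miR-671-3p overlapped at 89.2 to 127 CPM over the 6 libraries. MiR-7a-2-3p was at 23.7, 28.4 and 27.3 CPM against 18.2, 13.4 and 12.9 CPM (0.84, SE 0.24), and miR-7a-1-3p, from inside Hnrnpk, at 24.9, 29.9 and 27.9 CPM against 18.1, 22.1 and 20.5 CPM (0.45, SE 0.15). The call of miR-7a-2-3p was lost without hippocampus replicate 2, cortex replicate 2 or cortex replicate 3 (adjusted p of 0.0554, 0.0666 and 0.0817). That of miR-7a-1-3p was lost without hippocampus replicate 2 or 3 or cortex replicate 1 or 3 (0.0817 to 0.143). MiR-7b-3p was at under 3 CPM in every library of the comparison. The median of the 7 was 0.45, with 2 members below 0.

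Members of the miR-183 cluster and the miR-200 family were lower in hippocampus, 12 of 15 tested members, against 11.7% of all miRNAs. Their median difference was -3.82. These miRNAs mark epithelial and sensory cells and are abundant in the olfactory bulb. MiR-182-5p was at 248, 132 and 152 CPM in hippocampus and 5055, 2712 and 3277 CPM in wild type cortex, 20.8-fold apart (-4.38, SE 0.41, edgeR adjusted p = 7.18e-08). In knockout cortex it was at 96.3, 302 and 239 CPM, within the range of the hippocampus or near it, and in wild type olfactory bulb it averaged 210633 CPM. The other members moved together: miR-183-5p differed by -4.61, miR-141-3p by -5.61, miR-200a-3p by -3.82, miR-200b-3p by -3.57 and miR-429-3p by -3.49. In each of these the wild type cortex libraries ranked alike, replicate 1 highest and replicate 2 lowest.

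MiR-141-3p shows the range: 2.23, 3.12 and 4.75 CPM in hippocampus, 234, 119 and 150 CPM in wild type cortex, and 1.81, 14.0 and 5.86 CPM in knockout cortex. MiR-141-5p had 1 read over the hippocampus libraries and 57 over the cortex libraries, a ratio of 86.8 at equal depth with an exact 95% interval of 15 to 3486. A test of the difference of differences, knockout minus wild type, called 7 of 669 miRNAs (1.05%), and all 7 belonged to this set. Their values are given in the closing section. Of the 65 miRNAs lower in hippocampus outside the marker lists, 24 averaged more in wild type olfactory bulb than in wild type cortex and 41 averaged less. The same split was not counted over all miRNAs, so nothing about the olfactory bulb is read from it.

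The miRNAs of choroid plexus and ciliated lining cells were higher in hippocampus in 7 of 9 tested members, against 8.37% of all miRNAs. Their median was 1.43, and 1 was lower, miR-449c-5p (-1.17), with a mean of 1.55 CPM in cortex. The count of 7 rests on single libraries: it was 1 without hippocampus replicate 3, 4 without hippocampus replicate 1 or cortex replicate 3 and 5 without cortex replicate 1 or 2. It was 4 in the 6 libraries only, 1 with the replicate block and 0 with replicate 2 as the lone hippocampus library. In 1 of the 9 each hippocampus library lay above each cortex library, against 17.8% of all miRNAs. MiR-204-5p, the most abundant, lies inside the choroid plexus and retinal pigment epithelium gene Trpm3, and was at 6244, 2225 and 7391 CPM in hippocampus against 1832, 1698 and 1240 CPM in cortex. The difference was 1.73 (SE 0.29, edgeR adjusted p = 0.000107). Hippocampus replicate 2 lay near the cortex, and as the lone hippocampus library it gave 0.49 (adjusted p = 0.287). MiR-211-5p, with the same seed, was at 18.7, 7.68 and 19.1 CPM against 5.65, 8.76 and 6.36 CPM (1.11, SE 0.31). Its adjusted p of 0.0134 became 0.0647 without hippocampus replicate 1, 0.0806 without hippocampus replicate 3, 0.0676 without cortex replicate 1 and 0.0596 without cortex replicate 3.

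MiR-34b and miR-34c, miRNAs of cells with motile cilia, followed the same libraries. MiR-34c-5p was at 2185, 671 and 3175 CPM in hippocampus and 820, 624 and 637 CPM in cortex (1.54, SE 0.41, edgeR adjusted p = 0.0109), so replicate 2 lay within the cortex range. MiR-34b-5p was at 110, 36.9 and 149 CPM against 39.3, 30.9 and 25.7 CPM (1.63, SE 0.40), and miR-34b-3p differed by 1.66. Without hippocampus replicate 3 the adjusted p was 0.101, 0.0514 and 0.0693 for these 3. With replicate 2 alone their differences were -0.05, 0.21 and 0.12, and none of the 9 tested members of the list passed. In the knockout libraries, whose hippocampus sums were 3193 to 3498 CPM, no member passed either, and the median was 0.26.

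The miRNAs inside Htr2c, a serotonin receptor gene highly expressed in choroid plexus, varied most within the hippocampus. MiR-1298-5p was at 1816, 112 and 2385 CPM in hippocampus and 309, 248 and 151 CPM in cortex. Its difference of 2.61 (SE 0.94) did not pass edgeR's test (adjusted p = 0.0549) and did pass without hippocampus replicate 2 (3.15, adjusted p = 0.0127). With replicate 2 alone it was -1.07. Of 7 tested members none passed edgeR's test, 3 had an unadjusted p under 0.05, DESeq2 called 1 and limma-voom 0. EdgeR called 3, all higher, with upper quartile scaling, without hippocampus replicate 2, and among 8 members without the filter. In knockout hippocampus miR-1298-5p was at 102 and 76.9 CPM, below the 157 to 368 CPM of knockout cortex. In bulk tissue, fewer cells of a type and less RNA per cell cannot be told apart, here and for every list of cell markers.

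**Figure D4:**
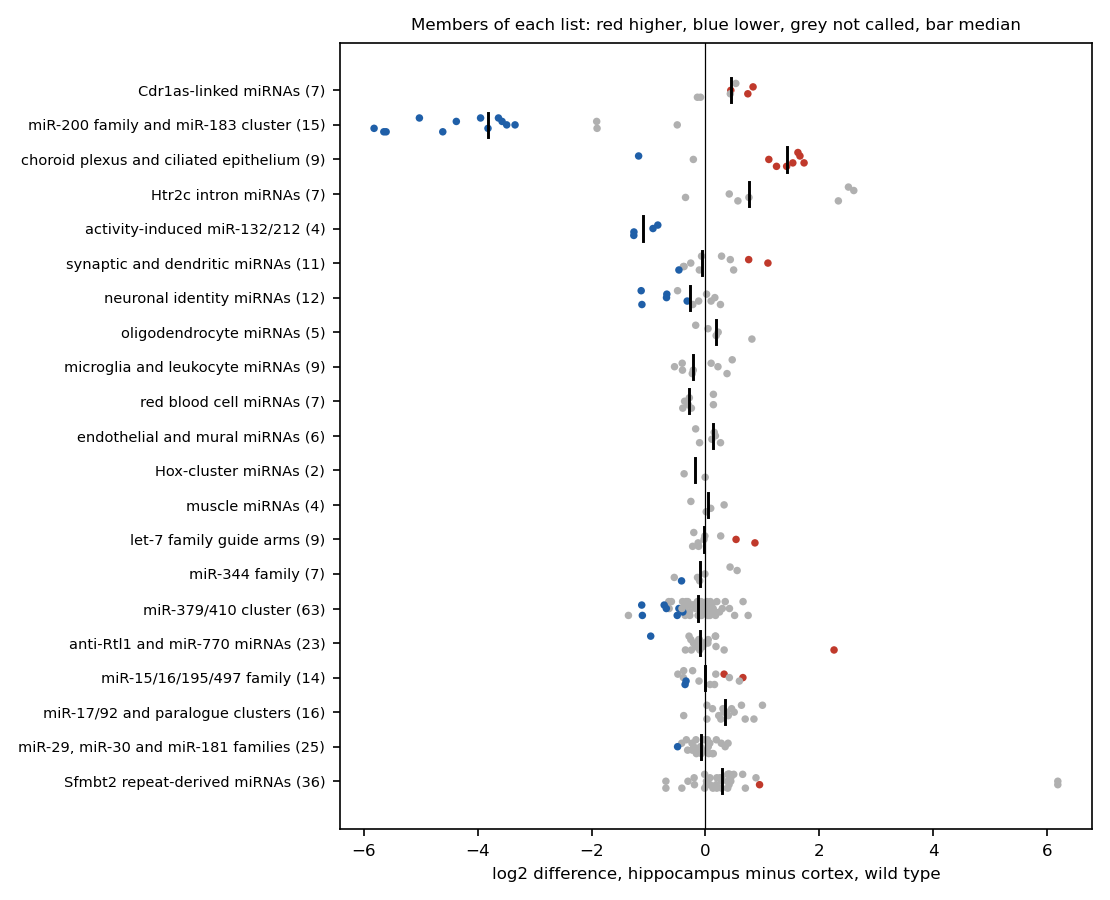
Difference between wild type hippocampus and wild type cortex (log2, horizontal axis) of each tested member of 21 lists, with the number tested in parentheses. Red points are higher, blue lower and grey not past the threshold, and bars are medians. The miR-200 list lies at the far left, all 4 arms of miR-132 and miR-212 lie below 0, and the marker lists of glia, blood, vessels and muscle are grey throughout.

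In the lists that mark other cell types, no member passed edgeR's test among 5 oligodendrocyte, 9 microglia and leukocyte, 7 red blood cell, 6 vessel, 2 Hox-cluster and 4 muscle miRNAs. Over all miRNAs 20% passed. At an unadjusted p under 0.05 there was 1 oligodendrocyte miRNA, which was higher. There were 2 of the microglia and leukocyte list, 1 higher and 1 lower, and none in the other 4 lists. The share of all miRNAs at that unadjusted level is not given here. DESeq2 and limma-voom called none in any of the 6 lists. Other settings of edgeR did give calls, all higher. With upper quartile scaling 2 of the 9 microglia and leukocyte miRNAs and 1 of the 5 oligodendrocyte miRNAs passed. For the oligodendrocyte list 1 also passed with library sizes alone and without hippocampus replicate 2 or 3, and 1 of the microglia and leukocyte list in the 6 libraries only, with and without the replicate block, and without the filter. The myelin-forming cell marker miR-338-3p was at 1051 to 1356 CPM in hippocampus and 977 to 1462 CPM in cortex, and miR-219a-2-3p at 324 to 429 CPM against 329 to 369 CPM. The 5 oligodendrocyte miRNAs differed by -0.17 to 0.82, with 4 above 0 and 1 below. Without overlap of the libraries 1 of them was higher, against 17.8% of all miRNAs. The leukocyte miR-150-5p was at 819, 655 and 693 CPM against 588, 456 and 520 CPM, apart without passing (0.47, edgeR adjusted p = 0.129). This miRNA did pass in 4 of 17 alternative settings, upper quartile scaling among them (0.72, adjusted p = 0.0166). MiR-342-3p, of the same list, was at 372 to 391 CPM against 300 to 351 CPM (0.22), and also passed with that scaling (0.46, adjusted p = 0.0255). The microglia and leukocyte list had a median difference of -0.21, with 4 members above 0 and 5 below. Red cell miR-486a-5p, whose counts equal those of miR-486b-5p, was at 4183 to 5572 CPM against 3502 to 5333 CPM. The 7 red blood cell miRNAs had a median difference of -0.28, with 2 above 0 and 5 below. The vessel miRNAs miR-143-3p (0.18) and miR-126a-5p (0.11), the hindbrain miRNAs miR-10b-5p (-0.37) and miR-10a-5p (0.00) and the muscle miRNAs miR-133a-3p (0.01) and miR-133b-3p (0.09) overlapped between the regions. Of 36 tested miRNAs of the repeat-derived Sfmbt2 families, 1 was higher, against 8.37% of all miRNAs. That was miR-669d-5p (0.95, at 3.40 CPM or less), with an edgeR adjusted p of 0.0681 to 0.0991 without hippocampus replicate 1 or 3 or cortex replicate 1 or 2. The median of the 36 was 0.29, against 0.03 over all miRNAs, with 28 above 0 and 8 below. Without overlap of the libraries 9 were higher and 1 lower, against 17.8% and 18.2% of all miRNAs. DESeq2 called 0 of the 36 and limma-voom 3, all higher. Without the filter 4 of 74 were higher and 0 lower.

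The 5 knockout libraries share no library with the wild type comparison and so measure the regional difference in other samples, with the spread estimated in 1 model. In them 85 of 669 miRNAs passed (12.7%), 34 higher (5.08%) and 51 lower (7.62%). Without knockout hippocampus replicate 3 that count fell to 43. Of the 134 miRNAs past the threshold in wild type, 131 had the same direction in knockout and 75 passed there too. Outside the 3 marker lists these were 113 and 72 of 114. Among the 535 miRNAs not past the threshold in wild type, 368 (68.8%) had the same direction and 10 of them passed in knockout. Across the 114 miRNAs the differences of both genotypes had a Pearson r of 0.94, and across all 134 one of 0.76, as descriptions over miRNAs that are not independent and share libraries.

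Large differences of wild type mostly kept their size outside the marker lists. MiR-127-3p differed by 2.26 in wild type and 2.18 in knockout, miR-193b-3p by -1.99 and -2.13, miR-378b by -1.72 and -1.71, and miR-132-3p by -1.26 and -1.25. MiR-204-5p differed by 1.73 and 0.63, and miR-182-5p by -4.38 and -0.66. The difference of differences was -0.08 (SE 0.20) for miR-127-3p and -1.10 (SE 0.42, edgeR adjusted p = 0.62) for miR-204-5p, which did not pass.

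**Figure D5:**
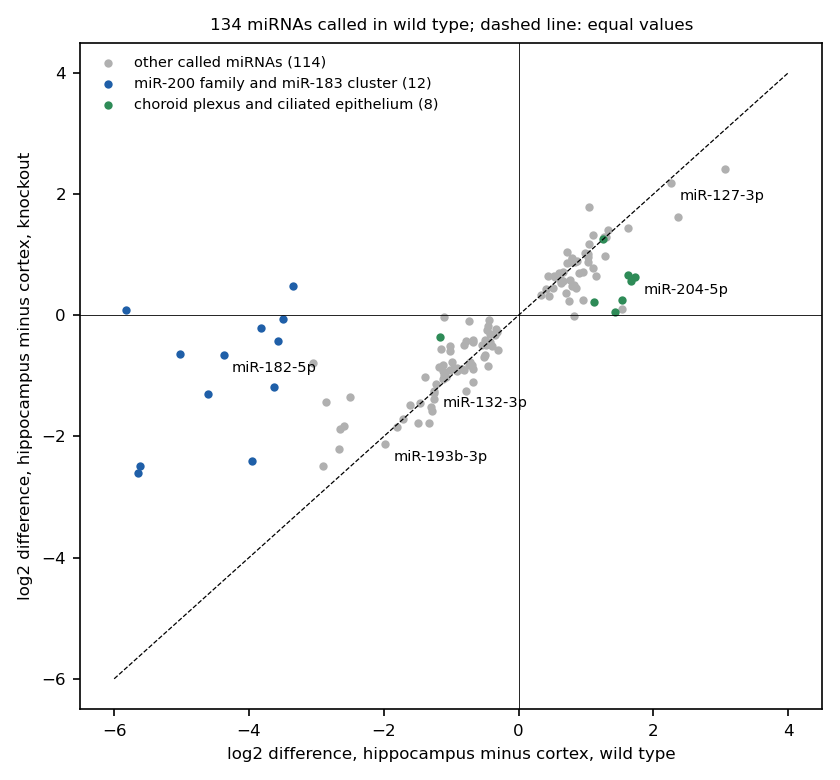
Difference between hippocampus and cortex in knockout (log2, vertical axis) against that in wild type (log2, horizontal axis) for the 134 miRNAs past the threshold in wild type. The dashed line marks equal values, blue points are the 12 members of the miR-200 and miR-183 list, green points the 8 choroid plexus and ciliated members and grey points the other 114. The grey points follow the line, and the blue points lie at -3.35 or below in wild type and between -2.60 and 0.49 in knockout.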

How the data were processed

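Small RNA sequencing was analysed in 6 wild type libraries, within a model of all 23. RNA was prepared with TRIZOL and made into libraries by the TruSeq Small RNA protocol, per the labels. Each library's deposited table lists unnormalized counts for 1915 miRNA names; the submitters' processing notes name the build mm9. How reads were aligned, counted and shared among like miRNAs is not given in the sources used here.

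In R 4.3.3, edgeR 4.0.16 (filterByExpr, count at least 10 and total at least 15, TMM factors, glmQLFit over 8 group means) tested the contrast of hippocampus and cortex in 669 miRNAs, two-sided, with Benjamini-Hochberg adjustment and a threshold of 0.05. It recovered known changes in simulated data. Alternatives used other scalings, no filter, DESeq2 1.42.0, limma 3.58.1 (voom), fewer libraries and a replicate block. Arm ratios had 0.5 added to each count. The 6 libraries were not duplicates (chi-square per degree of freedom of 73.2 to 271 over 6 pairs within regions).

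Named miRNAs were the 12 largest differences each way with a 2-fold change, 20 CPM and no overlap, the 10 most abundant, the Cdr1as-linked list, up to 4 called members per other list (2 where none was called), 8 seed families and 4 hairpins each way. Others are marked as picked after their values were seen, or stand as partner arms and family members. The libraries, the 21 lists and the rules were chosen with earlier results of these data known. Sequences matched 562 of 669 tested names in RefSeq. Chromosomes and host genes come from GENCODE M21 (GRCm38), whose build differs from mm9, so no coordinates are printed. No per-library column was left unused.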

Additional observations from a re-analysis of the deposited data

Results flagged for a closer look

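For 7 miRNAs the difference between hippocampus and cortex was not the same in the 2 genotypes, by the interaction term of edgeR's quasi-likelihood model with Benjamini-Hochberg adjustment over 669 miRNAs. All belong to the miR-200 family or the miR-183 cluster. The difference in knockout minus that in wild type was 3.71 for miR-182-5p (SE 0.54, adjusted p = 0.000678), 3.32 for miR-183-5p (adjusted p = 0.000777), 3.60 for miR-200a-3p (0.00166), 3.83 for miR-200a-5p (0.00289), 3.14 for miR-200b-3p (0.000869), 3.42 for miR-429-3p (0.00166) and 4.38 for miR-96-5p (0.0355), on the log2 scale. Wild type cortex was the group apart: miR-96-5p was at 21.2, 9.32 and 11.5 CPM there, at 0, 1.54 and 0.652 CPM in knockout cortex and at no more than 0.661 CPM in the 5 hippocampus libraries. For miR-141-3p (3.13, adjusted p = 0.116) and miR-200c-3p (3.05, adjusted p = 0.62) the same term did not pass. Leaving out 1 library at a time gave 5 to 8 such miRNAs, with 5 without knockout hippocampus replicate 3.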

How the results depend on the processing

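The count of 134 miRNAs differing in wild type stayed within 1.5 times under the planned settings, at 92 (without cortex replicate 3) to 182 (upper quartile scaling). It was 65 with hippocampus replicate 2 as the lone hippocampus library, an alternative chosen after seeing the data, as was the one without the 3 marker lists (114). The labels do not say whether same-numbered libraries of the regions come from one mouse, and the numbers were not taken as pairs. Deviations of same-numbered libraries correlated at -0.02, 0.03 and -0.14, and those of differently numbered ones at -0.13 to 0.14. With 3 libraries per region these values cannot decide the question. With a replicate block 93 miRNAs and 78 seed families passed, against 122 and 96 in the same 6 libraries without it. Leaving out 1 library gave 43 to 79 in knockout, lowest without hippocampus replicate 3, and 78 to 97 for seed families. Of 84 named miRNAs past the threshold, 48 passed in every setting, 36 were lost in at least 1 and 1 changed direction. That one was miR-34c-5p (-0.046 with the lone replicate 2). The other 62 values that changed sign belong to miRNAs not past the threshold.

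With upper quartile scaling the changed signs were 0.072 for miR-181a-5p, 0.19 for miR-22-3p, 0.23 for miR-434-3p, 0.027 for let-7f-5p, 0.24 for miR-27b-3p, 0.10 for miR-671-3p, 0.15 for miR-7b-3p, 0.23 for miR-10a-5p, 0.20 for miR-127-5p, 0.071 for miR-369-3p, 0.021 for miR-124-3p and 0.14 for miR-125b-5p. MiR-133a-3p was at -0.0065 with RLE scaling and -0.0063 with DESeq2. MiR-27b-3p was at 0.010 with library sizes alone, 0.011 with 6 libraries, 0.040 without the filter and 0.012 with the replicate block. The same settings gave 0.011, 0.0075, 0.034 and 0.0012 for miR-10a-5p. Without the filter miR-434-3p was at 0.019. With the lone replicate 2 the values were 0.047 for miR-434-3p, 0.021 for miR-27b-3p, -1.07 for miR-1298-5p, -0.26 for miR-1298-3p, -0.16 for miR-338-3p, -0.081 for miR-219a-2-3p, 0.055 for miR-10a-5p, 0.095 for miR-127-5p and -1.85 for miR-1912-3p.

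Leaving out 1 library at a time gave ranges across 0 of -0.082 to 0.091 for miR-10a-5p, -0.13 to 0.010 for miR-127-5p, -0.059 to 0.073 for miR-133a-3p, -0.017 to 0.19 for miR-133b-3p, -0.017 to 0.32 for miR-143-3p, -0.12 to 0.0089 for miR-22-3p, -0.052 to 0.092 for miR-25-3p, -0.044 to 0.087 for miR-26a-5p, -0.034 to 0.027 for miR-27b-3p, -0.078 to 0.23 for miR-338-3p, -0.059 to 0.025 for miR-434-3p, -0.016 to 0.34 for miR-486a-5p, -0.016 to 0.34 for miR-486b-5p, -0.20 to 0.045 for miR-7b-3p and -0.024 to 0.22 for miR-92a-3p. The cause of these changes was not tested. Depth limits the rare miRNAs: 3 reads are 0.240 to 0.465 CPM in these libraries.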
